A study of Drosophila melanogaster with 9 samples.

Results

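The genes of chromosome 4, the small dot chromosome of Drosophila melanogaster, were described across the mitotic, meiotic and post-meiotic regions of the testis. Their probe sets were taken as every probe set whose annotated gene lies on chromosome 4 in the gene reference, except those of bt, RpS3A and ATPsynbeta. The annotation placed 85 probe sets on chromosome 4, of which 3 belonged to bt or ATPsynbeta and were left out. RpS3A had no named probe set to leave out. This gave 82 probe sets of 18769 tested. Of these, 80 carried 1 gene symbol and covered 64 genes, all of them protein-coding, out of 80 protein-coding genes on the chromosome in the reference. The other 2 carried several symbols and were counted but not named. In all, 52 genes had 1 probe set and 12 had more than 1. Where 1 probe set per gene was needed, the one with the highest mean intensity was used.

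Chromosome 4 is an autosome that is packaged largely as heterochromatin, bound by the heterochromatin protein HP1a, yet its genes are transcribed like those of open chromatin. Pof is a protein that paints this chromosome and binds its active genes, and the methyltransferase eggless with its partner windei (wde) lays down the histone H3 methylation found there. The genes of the chromosome have unrelated functions, including the Hedgehog transcription factor cubitus interruptus (ci), Pax family regulators of eye development, axon guidance receptors and synaptic vesicle proteins. In the testis, germ cells divide by mitosis at the apical tip, grow as spermatocytes through a long meiotic prophase with intense transcription, and then elongate as spermatids in which most transcription has ceased.

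RNA of 3 testis regions was hybridised to Drosophila Genome 2.0 arrays from Affymetrix, 9 in all and 3 biological replicates a region. All came from the wild-type TEMPE T strain, which was free of Wolbachia. Virgin males were 6 to 10 days old, and each RNA sample pooled dissections of 250 to 500 testes, with 1 region taken from a testis. The mitotic samples were the apical tip, with stem cells, spermatogonia and some spermatocytes. The meiotic samples were cells pressed out of the middle region, mostly spermatocytes with some early spermatids. The post-meiotic samples were the distal region, with elongating spermatids and coiled sperm. The regions were enriched for their phase and not pure, and somatic cells of the testis came with them. Values were log2 intensities from the robust multi-array average (RMA), and a difference of 1 is a 2-fold change.

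The phases differed clearly over the whole array. Pearson correlations between arrays over all probe sets were 0.993 to 0.998 within a phase, 0.939 to 0.958 between mitosis and meiosis and 0.875 to 0.891 between meiosis and post-meiosis. The mean level of the 4 measured markers of mitotic germ cells (bam, bgcn, zpg and vas) was 8.83 to 9.10 in the mitotic arrays, 7.42 to 7.56 in the meiotic arrays and 6.29 to 6.42 in the post-meiotic arrays. That of 4 spermatocyte markers was 9.90 to 10.02, 10.17 to 10.26 and 7.53 to 7.70 in the same order, and that of 4 spermatid markers was 9.91 to 10.09, 11.32 to 11.36 and 11.43 to 11.57. The order of the mitotic markers fits the labels, with all 4 lower at both steps. All 4 spermatid markers were higher in meiosis than in mitosis, but they split afterwards. In post-meiosis against meiosis, schuy (0.77) and t-cup (1.19) were higher, while soti (-0.38) and wa-cup (-0.94) were lower and so highest in meiosis. The spermatocyte markers did not all peak in meiosis. Against mitosis, fzo was higher by 2.17, sa did not pass (0.11), and can (-0.35) and aly (-0.84) were lower.

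Fewer chromosome 4 genes rose on entry into meiosis than fell. With limma, fitted over all probe sets and called at an adjusted p under 0.05, 13 of the 82 probe sets (15.9%) were higher in meiosis than in mitosis, where 24.3% of all probe sets were. Lower in meiosis were 36 (43.9%), where 26.3% of all probe sets were, and 33 did not pass. The median change was -0.18 over the chromosome 4 probe sets and 0.06 over all probe sets. Among the 47 members whose names do not mark a possible match to several transcripts, 11 (23.4%) were higher, close to 24.6% of all such probe sets, and 15 (31.9%) were lower, where 23.1% of all were, with a median change of 0.01. In 58 of the 82 the 3 meiotic arrays did not overlap the 3 mitotic arrays, where 64.5% of all probe sets showed no overlap. Each sample held many cells, so fewer cells of a type and less RNA per cell cannot be told apart.

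From meiosis to post-meiosis the genes of the chromosome split more evenly. In post-meiosis, 27 of the 82 (32.9%) were higher than in meiosis, where 37.8% of all probe sets were. The lower ones numbered 30 (36.6%), where 27.8% of all probe sets were, and 25 did not pass. The post-meiotic and meiotic arrays did not overlap in 62, where 69.4% of all probe sets did not. The median change was 0.09 over the chromosome 4 probe sets and 0.13 over all. The sign of this median followed the scaling, since centring the arrays on their medians made it -0.06, where that of all probe sets was -0.02, and cyclic loess made it -0.02, where that of all was 0.01. The order of the shares turned as well. With centred arrays 23 (28.0%) were higher and 33 (40.2%) lower, where 24.3% of all probe sets were higher and 32.2% lower, and with cyclic loess 27 (32.9%) were higher and 30 (36.6%) lower, where 28.1% and 27.2% of all were. The share of higher members was thus below that of all probe sets as deposited and above it under both other scalings.

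Set directly against mitosis, 26 of the 82 (31.7%) were higher in post-meiosis, where 49.6% of all probe sets were, and 32 (39.0%) were lower, where 29.5% were. The arrays of these phases did not overlap in 61, where 80.7% of all probe sets did not. With cyclic loess 16 (19.5%) were higher and 35 (42.7%) lower, where 31.3% of all probe sets were higher and 30.9% lower. The share of rises was thus smaller with this scaling over the whole array as well. With 1 probe set for each of the 64 genes, 10 (15.6%) were higher and 31 (48.4%) lower in meiosis than in mitosis, where 30.1% and 33.7% of all genes were. In post-meiosis against meiosis, 21 (32.8%) were higher and 25 (39.1%) lower, where 37.1% and 36.3% of all genes were. In post-meiosis against mitosis, 21 (32.8%) were higher, where 46.3% of all genes were, and 26 (40.6%) were lower, close to 38.1% of all genes.

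The probe sets of the large autosomes, chromosomes 2 and 3, and of the X were read in the same way for orientation. Of 11581 on chromosomes 2 and 3, 29.3% were higher and 31.2% lower in meiosis than in mitosis. Of 2243 on the X, the same shares were 22.7% and 34.7%. In post-meiosis against meiosis, 36.5% were higher and 34.4% lower on chromosomes 2 and 3, and 39.4% were higher and 30.9% lower on the X. No test was made of the difference between chromosomes.

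**Figure D1:**
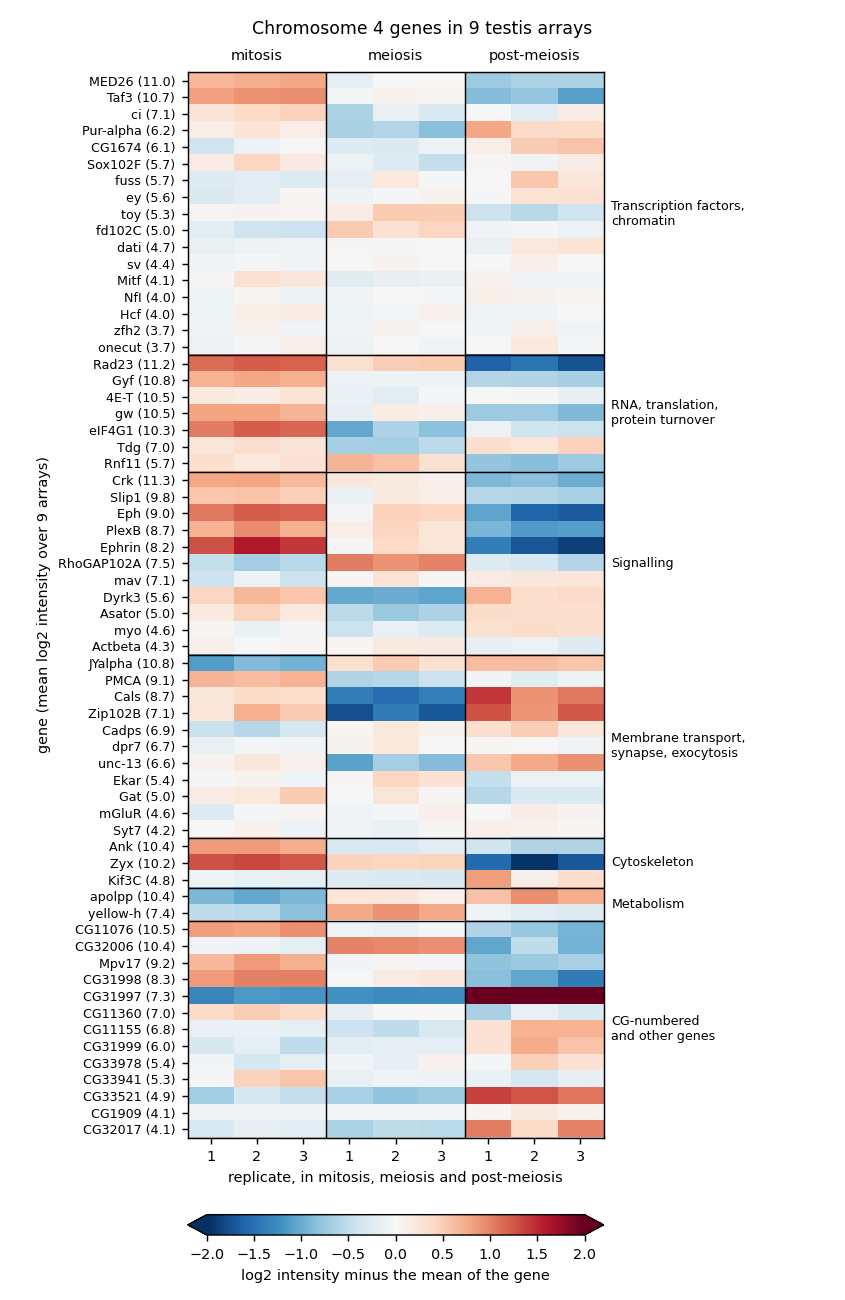
Log2 intensity of the 64 chromosome 4 genes (rows, grouped by function, with the mean over 9 arrays in brackets) in the 9 arrays (columns), each as the difference from the mean of the gene, with the colour scale ending at 2 in either direction. The bright genes of most groups were highest in mitosis and lowest in post-meiosis, and CG31997 stood out as high only in post-meiosis.

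Mean intensity over the 9 arrays ran from 3.68 to 11.35, with a median of 6.04 and quartiles of 4.68 and 8.57. Over all probe sets the median was 6.56, with quartiles of 5.23 and 8.76. Intensity depends on the probes as well as on the transcript, so it orders these genes only roughly. At least 5 on the log2 scale was reached by 56 of the 82 (68.3%), against 80.0% of all probe sets, while at least 10 was reached by 14 (17.1%), against 13.9%. The dimmest genes by their brightest probe set were onecut at 3.68 and zfh2 at 3.69, both homeodomain transcription factors. No detection calls came with the values, so a dim gene was not classed as absent.

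Most of the bright genes fell. Of the 18 probe sets with a mean of at least 9, each for a different gene, 15 were lower and 3 higher in meiosis than in mitosis, with a median change of -0.77. Among the 4264 probe sets of all genes at that level, 37.8% were lower and 45.5% higher, with a median of 0.09. In post-meiosis against meiosis, 13 of the 18 were lower, 3 higher and 2 did not pass, with a median of -0.67, and 51.6% of all probe sets at that level were lower, with a median of -0.27. Of the 64 dimmer ones, 21 were lower and 10 higher in meiosis than in mitosis, and 17 were lower and 24 higher in post-meiosis than in meiosis. Among all probe sets under 9, 23.0% were lower and 18.1% higher at the earlier step and 20.8% lower and 40.0% higher at the later one.

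**Figure D2:**
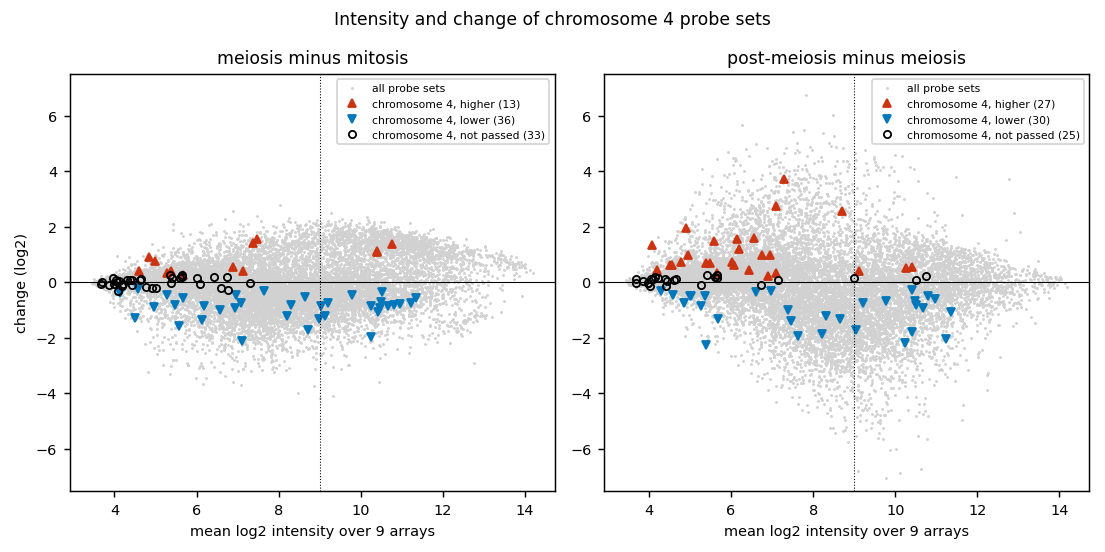
Change (log2) against mean log2 intensity for all probe sets (grey) and the chromosome 4 probe sets, higher (red), lower (blue) or not passed (open), for meiosis minus mitosis (left) and post-meiosis minus meiosis (right). To the right of the dotted line at 9, 15 of 18 chromosome 4 probe sets were lower in meiosis and 13 of 18 lower in post-meiosis. Of all 4264 probe sets at that level, 37.8% were lower in meiosis and 51.6% in post-meiosis.

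Among the 5 genes with the highest mean intensity, 4 fell at both steps. Crk (probe set 1634217_s_at), the adaptor that links tyrosine kinases to small GTPases, was the brightest, with 12.12, 12.13 and 12.00 (mitosis), 11.58, 11.53 and 11.45 (meiosis) and 10.45, 10.51 and 10.35 (post-meiosis). No array of one phase reached those of another, and the change was -0.56 ± 0.08 (SE of the fit, as after every change, adjusted p = 4.8e-05) in meiosis and then -1.08 ± 0.08 (adjusted p = 6.5e-08) in post-meiosis. Rad23 (1625068_a_at), which recognises damaged DNA in excision repair and carries ubiquitinated proteins to the proteasome, read 12.34, 12.44 and 12.40 (mitosis), 11.53, 11.72 and 11.75 (meiosis) and 9.61, 9.77 and 9.48 (post-meiosis). It was highest in every mitotic array and lowest in every post-meiotic one, with a change of -2.78 ± 0.09, or 6.85-fold, in post-meiosis against mitosis. MED26, a subunit of the Mediator complex, read 11.62, 11.69 and 11.74 (mitosis), 10.77, 10.95 and 10.97 (meiosis) and 10.24, 10.33 and 10.35 (post-meiosis). Gyf, named for its GYF domain, which binds proline-rich peptides, read 11.50, 11.58 and 11.52 (mitosis), 10.69, 10.71 and 10.70 (meiosis) and 10.23, 10.20 and 10.15 (post-meiosis). Both stepped down in meiosis and again in post-meiosis without overlap between phases. JYalpha, the fifth, was the exception. It encodes a sodium and potassium pumping ATPase alpha subunit that is needed for male fertility.

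Of the genes listed under transcription and chromatin, the 2 bright ones, MED26 and Taf3, fell at both steps, and most of the dimmer ones did not pass. The bright gene CG32006, also named FoxJ1 for a forkhead factor, was not in this list and rose in meiosis, as described with the CG-numbered genes. Of 17 genes measured among 20 listed, 2 were higher, 6 lower and 9 did not pass in meiosis against mitosis, with a median of -0.05. In post-meiosis against meiosis, 4 were higher, 4 lower and 9 did not pass, with a median of 0.12. With 1 probe set each, 30.1% of all genes were higher and 33.7% lower in meiosis against mitosis. For post-meiosis against meiosis these shares were 37.1% and 36.3%. This list held CG1674, whose role is not given in the sources used here. Taf3, a subunit of the general transcription factor TFIID, read 11.49, 11.57 and 11.60 (mitosis), 10.63, 10.75 and 10.73 (meiosis) and 9.81, 9.90 and 9.59 (post-meiosis) and changed by -0.85 ± 0.09 in meiosis (adjusted p = 3.4e-06) and by -0.94 ± 0.09 in post-meiosis (adjusted p = 1.0e-06). MED26 changed by -0.79 ± 0.08 and -0.59 ± 0.08 (adjusted p = 2.7e-06 and 3.8e-05). Both were highest in every mitotic array and lowest in every post-meiotic one.

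Pur-alpha, a single-stranded nucleic acid binding protein, took another course, with 6.32, 6.47 and 6.33 (mitosis), 5.55, 5.61 and 5.35 (meiosis) and 6.97, 6.58 and 6.56 (post-meiosis). It was lower in every meiotic array than in any other, and rose by 1.20 ± 0.12 in post-meiosis (adjusted p = 8.7e-07) after a change of -0.87 ± 0.12 in meiosis (adjusted p = 2.4e-05). The forkhead gene fd102C did the opposite at a low intensity, with 4.78, 4.59 and 4.56 (mitosis), 5.51, 5.29 and 5.42 (meiosis) and 4.91, 4.96 and 4.87 (post-meiosis). It was highest in meiosis, at 0.76 ± 0.09 over mitosis (adjusted p = 6.7e-06). The gene ci averaged 7.47 ± 0.10 (mitosis), 6.73 ± 0.25 (meiosis) and 7.07 ± 0.18 (post-meiosis) (SD, n = 3, as after every mean), with a change of -0.73 ± 0.13 in meiosis (adjusted p = 2.6e-04). Its rise of 0.33 ± 0.13 in post-meiosis (adjusted p = 0.0351), where arrays overlapped, was lost with centred arrays (0.19), without meiosis replicate 1 (0.20), without meiosis replicate 3 (0.37), without post-meiosis replicate 1 (0.32) and without post-meiosis replicate 3 (0.25), with adjusted p between 0.0511 and 0.245. Sox102F, a SoxD factor, averaged 5.92 ± 0.13 (mitosis), 5.37 ± 0.18 (meiosis) and 5.69 ± 0.11 (post-meiosis). Its change was -0.55 ± 0.11 in meiosis (adjusted p = 7.3e-04). A later rise of 0.32 ± 0.11 (adjusted p = 0.0184) was lost with centred arrays (0.18), with cyclic loess (0.05), without meiosis replicate 3 (0.23) and without post-meiosis replicate 3 (0.27), with adjusted p between 0.0705 and 0.707.

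The Pax genes of the chromosome were dim. The brightest of 3 probe sets for twin of eyeless (toy), a Pax6 gene, averaged 5.33 ± 0.01 (mitosis), 5.66 ± 0.21 (meiosis) and 4.81 ± 0.08 (post-meiosis), with a change of -0.85 ± 0.10 in post-meiosis against meiosis (adjusted p = 7.1e-06). Its rise of 0.33 ± 0.10 in meiosis (adjusted p = 0.0143) was lost with cyclic loess (0.23), without meiosis replicate 2 (0.27) and without meiosis replicate 3 (0.28), with adjusted p between 0.0684 and 0.109. The other Pax6 gene, eyeless (ey), averaged 5.43 ± 0.18 (mitosis), 5.57 ± 0.09 (meiosis) and 5.78 ± 0.18 (post-meiosis) and passed at neither step. The Pax2 gene shaven (sv) averaged 4.37 ± 0.01 (mitosis), 4.45 ± 0.05 (meiosis) and 4.48 ± 0.08 (post-meiosis) and did not pass either. CG1674 rose by 0.62 ± 0.13 in post-meiosis (adjusted p = 8.1e-04), to 6.47 ± 0.23, against 5.85 ± 0.09 in meiosis. Mitf, a basic helix-loop-helix factor, averaged 3.96 ± 0.06 in meiosis, against 4.33 ± 0.15 in mitosis, a change of -0.37 ± 0.09 (adjusted p = 0.0038). The other genes of the list were the homeodomain genes zfh2 and onecut, the nuclear factor NfI, the host cell factor Hcf, the zinc finger gene dati and the Ski family gene fuss, which had means under 6 and passed at neither step.

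The genes for RNA handling and protein turnover mostly fell in meiosis. All 7 listed were measured. In meiosis, 6 were lower and 1 higher, with a median change of -0.73. In post-meiosis against meiosis, 4 were lower, 2 higher and 1 did not pass, with a median of -0.51. Of all genes, 33.7% were lower and 30.1% higher in meiosis, and 36.3% and 37.1% in post-meiosis. The widest meiotic drop of the group was that of eIF4G1 (1637560_at), the scaffold that joins the cap-binding protein to the ribosome, which read 11.31, 11.47 and 11.43 (mitosis), 9.24, 9.64 and 9.44 (meiosis) and 10.14, 9.87 and 9.83 (post-meiosis). Every meiotic array lay below all post-meiotic arrays, and these below all mitotic ones, with -1.97 ± 0.11 (adjusted p = 1.7e-08), a 3.90-fold lower level in meiosis, and 0.51 ± 0.11 afterwards (adjusted p = 0.0016). The translational repressor 4E-T, which binds eIF4E, changed less. It averaged 10.72 ± 0.06 (mitosis), 10.38 ± 0.10 (meiosis) and 10.45 ± 0.08 (post-meiosis), with -0.34 ± 0.08 in meiosis (adjusted p = 0.0038) and 0.07 ± 0.08 in post-meiosis (adjusted p = 0.485).

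Gawky (gw), the GW182 protein through which microRNAs silence messages, averaged 11.25 ± 0.06 (mitosis), 10.53 ± 0.16 (meiosis) and 9.72 ± 0.09 (post-meiosis) and fell at both steps, with changes of -0.72 ± 0.09 and -0.81 ± 0.09 (adjusted p = 2.1e-05 and 6.0e-06). Gyf changed by -0.83 ± 0.07 and -0.51 ± 0.07 (adjusted p = 4.2e-07 and 3.7e-05). Rad23 changed by -0.73 ± 0.09 in meiosis (adjusted p = 1.9e-05) and by -2.05 ± 0.09 in post-meiosis (adjusted p = 5.3e-10). Its later change was the larger, while that of eIF4G1 was the smaller. Tdg, a thymine DNA glycosylase of base excision repair, was lowest in meiosis, with means of 7.23 ± 0.04 (mitosis), 6.32 ± 0.08 (meiosis) and 7.30 ± 0.11 (post-meiosis) and changes of -0.91 ± 0.08 (adjusted p = 7.8e-07) and 0.97 ± 0.08 (adjusted p = 2.7e-07). Post-meiosis against mitosis gave 0.07 ± 0.08 and no call (adjusted p = 0.465).

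Rnf11, a RING finger ubiquitin ligase, dropped late. Its brighter probe set (1641464_s_at) read 5.99, 5.86 and 5.95 (mitosis), 6.35, 6.26 and 5.97 (meiosis) and 4.88, 4.81 and 4.94 (post-meiosis), with all post-meiotic arrays about a unit below the rest and a change of -1.32 ± 0.10 (adjusted p = 7.8e-08). Its other probe set changed by -2.27 ± 0.14 at the same step (adjusted p = 7.6e-09). Its meiotic rise was less firm, since the arrays overlapped. The 0.26 ± 0.10 of the brighter probe set (adjusted p = 0.0448) was lost with cyclic loess (0.15), with the replicate number as a block (0.26), without meiosis replicate 1 (0.18), without meiosis replicate 2 (0.23), without mitosis replicate 1 (0.29), without mitosis replicate 2 (0.22) and without mitosis replicate 3 (0.27), with adjusted p between 0.0513 and 0.256. The 0.40 ± 0.14 of the other (adjusted p = 0.0251) was lost with cyclic loess (0.30), without meiosis replicate 2 (0.26), without meiosis replicate 3 (0.40), without mitosis replicate 1 (0.37) and without mitosis replicate 2 (0.34), with adjusted p between 0.0601 and 0.124.

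Of the signalling genes, 11 of 15 listed were measured. In meiosis 8 were lower, 2 higher and 1 did not pass, with a median change of -0.52. After meiosis, 7 were lower, 3 higher and 1 did not pass, with a median of -0.66. Of all genes, 33.7% were lower and 30.1% higher in meiosis, and 36.3% and 37.1% after it. The ligand Ephrin and its receptor Eph, which guide axons by contact between cells, both fell at each step. Ephrin (1634035_s_at) read 9.49, 9.81 and 9.63 (mitosis), 8.23, 8.61 and 8.46 (meiosis) and 6.83, 6.50 and 6.34 (post-meiosis). Eph (1641458_s_at) read 10.10, 10.25 and 10.22 (mitosis), 9.02, 9.51 and 9.48 (meiosis) and 7.99, 7.45 and 7.38 (post-meiosis). For both, each mitotic array was above each meiotic one and each meiotic array above each post-meiotic one. Ephrin changed by -1.22 ± 0.14 in meiosis (adjusted p = 4.9e-06) and -1.87 ± 0.14 in post-meiosis (adjusted p = 5.0e-08), ending 8.51-fold lower in post-meiosis than in mitosis. Eph changed by -0.86 ± 0.16 (adjusted p = 4.9e-04) and -1.73 ± 0.16 (adjusted p = 6.0e-07).

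PlexB, the plexin receptor for semaphorins, had 4 probe sets. The brightest (1626676_at) read 9.35, 9.60 and 9.37 (mitosis), 8.79, 9.09 and 8.89 (meiosis) and 7.74, 7.52 and 7.55 (post-meiosis), with the lowest values in post-meiosis, at -1.32 ± 0.10 (adjusted p = 1.3e-07). Its meiotic change of -0.52 ± 0.10 (adjusted p = 9.1e-04) was lost with cyclic loess (-0.24), adjusted p = 0.0658. The next brightest changed by -1.95 ± 0.11 in post-meiosis (adjusted p = 4.0e-09). Its -0.30 ± 0.11 in meiosis (adjusted p = 0.035) was lost with centred arrays (-0.24), with cyclic loess (-0.09), without meiosis replicate 1 (-0.23), without meiosis replicate 2 (-0.32), without mitosis replicate 1 (-0.31), without mitosis replicate 2 (-0.29) and without mitosis replicate 3 (-0.31), with adjusted p between 0.0596 and 0.554. The other two, dimmer than 6 on average, passed at neither step. In post-meiosis against mitosis, however, 1 of them (1640702_at) was higher, by 0.35 ± 0.11 with overlapping arrays (adjusted p = 0.0111), and the other 3 probe sets were lower, the brightest at -1.84 ± 0.10.

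RhoGAP102A (1640657_at) had the widest meiotic rise of the measured genes. It read 6.99, 6.77 and 6.92 (mitosis), 8.51, 8.37 and 8.46 (meiosis) and 7.20, 7.13 and 6.88 (post-meiosis). The meiotic arrays were the highest by more than 1 unit, and mitosis and post-meiosis overlapped. The changes were 1.56 ± 0.10 (adjusted p = 3.1e-08), or 2.94-fold higher in meiosis, and then -1.38 ± 0.10 (adjusted p = 4.3e-08). Its dimmer probe set showed the same course, with 0.90 ± 0.11 and -0.74 ± 0.11 (adjusted p = 1.1e-05 and 5.5e-05). The kinase Dyrk3 (1633143_s_at) mirrored it, with 6.01, 6.25 and 6.13 (mitosis), 4.56, 4.59 and 4.53 (meiosis) and 6.27, 5.91 and 5.96 (post-meiosis). All meiotic arrays were the lowest, with -1.57 ± 0.10 against mitosis (adjusted p = 4.0e-08), and Dyrk3 then rose by 1.48 ± 0.10 (adjusted p = 3.1e-08). Asator, a tau tubulin kinase homologue, followed Dyrk3 at a lower intensity, with -0.90 ± 0.09 and 0.98 ± 0.09 (adjusted p = 2.0e-06 and 6.4e-07).

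The chromosome holds 3 genes for ligands of the TGF-beta family, all with small changes. Maverick (mav) read 6.72, 7.03 and 6.73 (mitosis), 7.16, 7.41 and 7.17 (meiosis) and 7.30, 7.36 and 7.38 (post-meiosis), higher in each meiotic array than in any mitotic one, with 0.42 ± 0.10 (adjusted p = 0.0036) and no call afterwards (0.10 ± 0.10, adjusted p = 0.418). Activin-beta (Actbeta) averaged 4.34 ± 0.06 (mitosis), 4.43 ± 0.08 (meiosis) and 4.11 ± 0.08 (post-meiosis), with -0.32 ± 0.08 in post-meiosis (adjusted p = 0.0037). Myoglianin (myo) averaged 4.52 ± 0.08 (mitosis), 4.28 ± 0.14 (meiosis) and 4.90 ± 0.03 (post-meiosis), with a post-meiotic rise of 0.62 ± 0.09 (adjusted p = 4.1e-05). Its meiotic -0.24 ± 0.09 (adjusted p = 0.0372) was lost with centred arrays (-0.18), with the replicate number as a block (-0.24), without meiosis replicate 1 (-0.17), without meiosis replicate 3 (-0.24), without mitosis replicate 1 (-0.20) and without mitosis replicate 3 (-0.24), with adjusted p between 0.0509 and 0.172. Slip1, which binds the Slowpoke potassium channel, averaged 10.31 ± 0.05 (mitosis), 9.84 ± 0.17 (meiosis) and 9.18 ± 0.04 (post-meiosis) and fell at both steps, with -0.47 ± 0.09 in meiosis (adjusted p = 6.6e-04) and -0.66 ± 0.09 in post-meiosis (adjusted p = 2.9e-05). The later drop was lost with cyclic loess (-0.22), adjusted p = 0.0593.

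The genes of membrane transport, synapse and exocytosis held both the widest meiotic drop and some of the widest post-meiotic rises. Of 11 measured among 12 listed, 4 were lower, 2 higher and 5 did not pass in meiosis, with a median change of -0.06. From meiosis to post-meiosis, 5 were higher, 2 lower and 4 did not pass, with a median of 0.21. Of all genes, 33.7% were lower and 30.1% higher in meiosis, and 37.1% were higher and 36.3% lower in post-meiosis. Zip102B (1626088_at), a zinc transporter of the ZIP family, read 7.34, 7.81 and 7.61 (mitosis), 5.34, 5.71 and 5.41 (meiosis) and 8.37, 7.98 and 8.35 (post-meiosis). The meiotic arrays were far below the rest, at -2.10 ± 0.14 (adjusted p = 5.0e-08) or 4.29-fold lower in meiosis, followed by 2.75 ± 0.14 (adjusted p = 1.6e-09) or 6.73-fold higher in post-meiosis. Calsyntenin (Cals, probe set 1628842_s_at), a cadherin-like membrane protein of synapses, read 8.94, 9.07 and 9.02 (mitosis), 7.32, 7.18 and 7.34 (meiosis) and 10.12, 9.61 and 9.76 (post-meiosis). It showed the same gap in meiosis, with -1.73 ± 0.12 (adjusted p = 4.9e-08) and 2.55 ± 0.12 (adjusted p = 5.0e-10). The post-meiotic levels of Zip102B and Cals were above the mitotic ones by 0.65 ± 0.14 and 0.82 ± 0.12 (adjusted p = 0.0010 and 3.0e-05).

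The priming factor unc-13 (1635684_a_at), which readies synaptic vesicles for release, read 6.64, 6.79 and 6.66 (mitosis), 5.50, 5.91 and 5.70 (meiosis) and 7.11, 7.33 and 7.49 (post-meiosis). It too was lowest in every meiotic array, with -0.99 ± 0.12 (adjusted p = 9.1e-06) and then 1.61 ± 0.12 (adjusted p = 6.0e-08). PMCA, the plasma membrane calcium pump, had 3 probe sets, of which the brightest (1632285_at) read 9.80, 9.73 and 9.81 (mitosis), 8.51, 8.55 and 8.68 (meiosis) and 9.06, 8.87 and 9.02 (post-meiosis). It was highest in mitosis and lowest in meiosis, with -1.20 ± 0.08 (adjusted p = 6.7e-08) and 0.40 ± 0.08 (adjusted p = 9.2e-04). The other 2 also fell in meiosis, with -1.32 ± 0.16 and -1.29 ± 0.12 (adjusted p = 9.6e-06 and 5.9e-07). Only the dimmer of these rose afterwards, by 0.61 ± 0.12 (adjusted p = 4.9e-04), and the brighter changed by 0.15 ± 0.16 (adjusted p = 0.408).

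The probe sets that were lower in meiosis and then higher in post-meiosis numbered 15 (18.3%), where 8.46% of all probe sets were. The measured markers of sheath muscle, 2 of 4 listed, moved the same way. Their mean was 5.97 to 6.43 in mitosis, 5.27 to 5.45 in meiosis and 7.83 to 8.36 in post-meiosis. Tropomyosin 2 (Tm2) averaged 5.79 ± 0.13 (mitosis), 5.24 ± 0.23 (meiosis) and 7.71 ± 0.30 (post-meiosis), and the troponin T gene upheld (up) 6.74 ± 0.38 (mitosis), 5.45 ± 0.13 (meiosis) and 8.59 ± 0.27 (post-meiosis). The mean of 3 of 4 neuron markers, elav, nSyb and brp, was 6.62 to 6.81 in mitosis, 7.09 to 7.17 in meiosis and 7.62 to 8.04 in post-meiosis. These 3 did not move together. The marker elav was lowest in meiosis, with means of 5.03 ± 0.01 (mitosis), 4.52 ± 0.10 (meiosis) and 5.61 ± 0.12 (post-meiosis). The marker nSyb was highest in post-meiosis, with 7.25 ± 0.0075 (mitosis), 7.43 ± 0.10 (meiosis) and 9.51 ± 0.39 (post-meiosis). The marker brp was highest in meiosis, with 7.81 ± 0.31 (mitosis), 9.44 ± 0.13 (meiosis) and 8.33 ± 0.14 (post-meiosis). The mean of 4 of 5 hub and cyst cell markers was 6.84 to 6.89 in mitosis, 6.22 to 6.30 in meiosis and 6.17 to 6.31 in post-meiosis. In meiosis zfh1 fell most (-1.76), eya (-0.30) and tj (-0.29) fell less, and upd1 did not pass (-0.11). At the later step only zfh1 was called, with -0.29. The part of sheath muscle, neurons, hub and cyst cells in the course of Zip102B, Cals, unc-13 and Dyrk3 was not tested.

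JYalpha (1635946_at) read 9.64, 9.87 and 9.82 (mitosis), 11.08, 11.29 and 11.07 (meiosis) and 11.37, 11.38 and 11.31 (post-meiosis). It was higher in every meiotic array than in any mitotic one, by 1.37 ± 0.09 (adjusted p = 4.5e-08) or 2.59-fold, with 0.21 ± 0.09 and no call in post-meiosis against meiosis (adjusted p = 0.0624). Among the 18 bright genes it was one of the 3 that rose in meiosis, with apolpp and CG32006. The kainate receptor subunit Ekar averaged 5.12 ± 0.20 in post-meiosis, against 5.61 ± 0.20 in meiosis, a change of -0.49 ± 0.12 (adjusted p = 0.0030). The GABA transporter Gat averaged 4.63 ± 0.16 in post-meiosis, against 5.11 ± 0.13 in meiosis, a change of -0.48 ± 0.11 (adjusted p = 0.0025). The metabotropic glutamate receptor mGluR, the vesicle calcium sensor Syt7 and the surface protein dpr7 passed at neither step, at means of 4.62, 4.22 and 6.74.

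The probe sets of 1 gene had opposite calls in meiosis against mitosis. Cadps, needed for the release of dense-core vesicles, had 2 probe sets of similar intensity. The brighter (1628675_at) read 6.44, 6.31 and 6.54 (mitosis), 6.93, 7.10 and 6.95 (meiosis) and 7.21, 7.38 and 7.11 (post-meiosis) and was higher in meiosis, with 0.56 ± 0.10 (adjusted p = 2.1e-04). The other (1631142_a_at) read 6.40, 6.76 and 6.45 (mitosis), 5.12, 5.34 and 5.04 (meiosis) and 6.78, 6.77 and 6.64 (post-meiosis) and was lower in meiosis, with -1.37 ± 0.11 (adjusted p = 2.2e-07), and then higher, with 1.56 ± 0.11 (adjusted p = 3.6e-08). The arrays of meiosis and mitosis did not overlap for either. Which transcripts each of them reads is not given in the sources used here. The later rise of 0.24 ± 0.10 of the brighter (adjusted p = 0.0401) was lost with centred arrays (0.10), with cyclic loess (0.19), with the replicate number as a block (0.24), without meiosis replicate 1 (0.21), without meiosis replicate 3 (0.22), without mitosis replicate 1 (0.24) and without post-meiosis replicate 2 (0.17), with adjusted p between 0.0529 and 0.438.

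**Figure D3:**
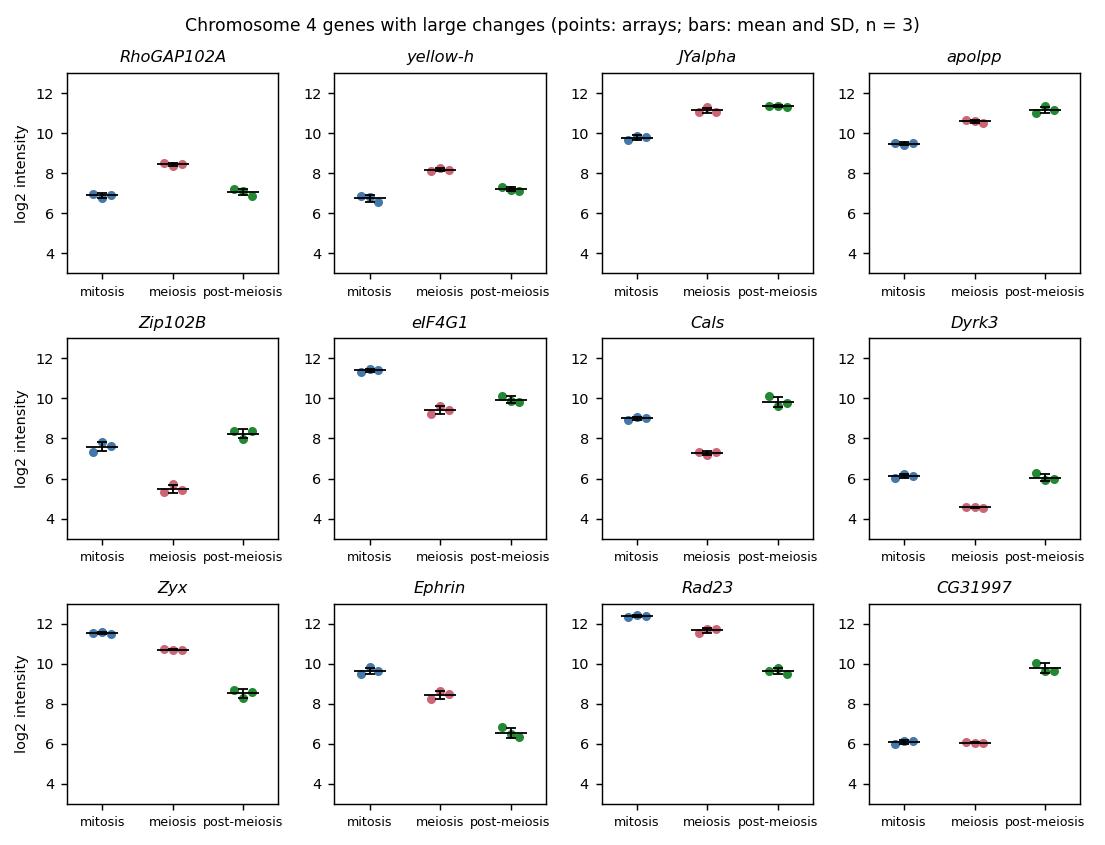
Log2 intensity (vertical axes) of 12 chromosome 4 genes with large changes in mitosis, meiosis and post-meiosis, where points are single arrays and bars the mean and SD of 3. RhoGAP102A and yellow-h peaked in meiosis, JYalpha and apolpp were higher in meiosis and post-meiosis than in mitosis, Zip102B, Cals and Dyrk3 dipped in meiosis, Zyx, Ephrin and Rad23 stepped down at both steps, and CG31997 was high only in post-meiosis.

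Of the cytoskeletal genes, zyxin and ankyrin were bright. Zyx (1627216_s_at), a LIM protein of focal adhesions, read 11.52, 11.59 and 11.49 (mitosis), 10.71, 10.67 and 10.70 (meiosis) and 8.70, 8.29 and 8.56 (post-meiosis). It had the widest post-meiotic drop of the genes of the chromosome by their brightest probe sets, with -0.84 ± 0.10 (adjusted p = 7.7e-06) and -2.18 ± 0.10 (adjusted p = 4.8e-10), or 4.52-fold lower in post-meiosis than in meiosis. Ank (1635711_s_at), which anchors membrane proteins to spectrin, read 11.27, 11.27 and 11.14 (mitosis), 10.12, 10.11 and 10.21 (meiosis) and 10.02, 9.81 and 9.82 (post-meiosis), with its drop at the earlier step, at -1.08 ± 0.08 (adjusted p = 1.7e-07). Its small later change of -0.26 ± 0.08 (adjusted p = 0.0152) was lost with cyclic loess (0.11), without meiosis replicate 3 (-0.23) and without post-meiosis replicate 2 (-0.23), with adjusted p between 0.0505 and 0.263, so that its sign turned with cyclic loess. A dim probe set of Ank at 3.97 passed at neither step. Kif3C, a kinesin motor, averaged 4.64 ± 0.05 (mitosis), 4.49 ± 0.03 (meiosis) and 5.22 ± 0.36 (post-meiosis), and rose by 0.73 ± 0.14 in post-meiosis (adjusted p = 4.6e-04).

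Both measured genes of metabolism and secreted proteins rose in meiosis. Apolipophorin (apolpp, probe set 1637843_at), the lipid carrier of the blood that the fat body makes, read 9.51, 9.39 and 9.52 (mitosis), 10.66, 10.63 and 10.51 (meiosis) and 11.00, 11.34 and 11.14 (post-meiosis). It was higher without overlap at each step, by 1.12 ± 0.10 (adjusted p = 4.0e-07) and 0.56 ± 0.10 (adjusted p = 2.0e-04). Lsp2, Fbp1, Yp1 and Yp2 were listed as fat body markers. Their mean was 5.99 to 6.10 in mitosis, 6.18 to 6.31 in meiosis and 6.17 to 6.39 in post-meiosis. They did not move together. In meiosis against mitosis only Yp1 was called, higher by 0.24. In post-meiosis against meiosis, Fbp1 (0.38), Yp1 (0.23) and Yp2 (0.35) were higher and Lsp2 (-0.74) was lower. Whether these 4 genes mark the fat body of adult males was not tested, nor was the part of fat body in the level of apolpp. The gene yellow-h (1633329_at), of the yellow family, read 6.87, 6.84 and 6.55 (mitosis), 8.13, 8.28 and 8.14 (meiosis) and 7.31, 7.16 and 7.12 (post-meiosis). It was highest in every meiotic array, with 1.43 ± 0.10 (adjusted p = 7.0e-08) and then -0.99 ± 0.10 (adjusted p = 1.5e-06).

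The 13 remaining genes, most known only by CG numbers, included the largest change of the measured genes. In meiosis 5 were lower, 1 higher and 7 did not pass, with a median change of -0.26. At the later step, 5 were higher, 5 lower and 3 did not pass, with a median of 0.13. Of all genes, 33.7% were lower and 30.1% higher in meiosis, and 37.1% were higher and 36.3% lower at the later step. CG31997 (1633712_at) read 5.99, 6.15 and 6.13 (mitosis), 6.09, 6.03 and 6.04 (meiosis) and 10.05, 9.64 and 9.61 (post-meiosis). Mitotic and meiotic arrays overlapped near 6, and the post-meiotic arrays lay more than 3 units above them, at 3.72 ± 0.11 over meiosis (adjusted p = 1.4e-11), a 13.1-fold higher level. No role for this gene is given in the sources used here. CG32006 (1625727_at), also listed as FoxJ1 in the gene reference, read 10.34, 10.30 and 10.21 (mitosis), 11.40, 11.36 and 11.32 (meiosis) and 9.36, 9.89 and 9.46 (post-meiosis). It was the highest in meiosis and lowest in post-meiosis, with 1.08 ± 0.12 (adjusted p = 4.4e-06) and -1.79 ± 0.12 (adjusted p = 2.1e-08).

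Other genes of this group rose in post-meiosis only. CG33521 (1636112_s_at) read 4.21, 4.55 and 4.43 (mitosis), 4.25, 4.11 and 4.19 (meiosis) and 6.28, 6.16 and 5.97 (post-meiosis), with every post-meiotic array above 5.9 and a change of 1.95 ± 0.11 (adjusted p = 2.9e-09). CG32017 (1634093_at) read 3.77, 3.91 and 3.87 (mitosis), 3.44, 3.57 and 3.54 (meiosis) and 5.11, 4.44 and 5.07 (post-meiosis), with a change of 1.35 ± 0.15 (adjusted p = 2.8e-06). Its arrays were among the dimmest in mitosis and meiosis and spread more in post-meiosis, where replicate 2 was the lowest. CG11155 and CG31999 rose by 0.97 ± 0.11 and 0.74 ± 0.12 at that step (adjusted p = 4.4e-06 and 9.5e-05), after no call in meiosis.

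Several brighter genes of the group fell. CG11076 averaged 11.33 ± 0.06 (mitosis), 10.40 ± 0.06 (meiosis) and 9.73 ± 0.16 (post-meiosis), with -0.93 ± 0.09 and -0.67 ± 0.09 (adjusted p = 1.4e-06 and 2.5e-05). Mpv17, a protein of the mitochondrial inner membrane, averaged 9.94 ± 0.11 (mitosis), 9.20 ± 0.06 (meiosis) and 8.48 ± 0.08 (post-meiosis), with -0.74 ± 0.08 and -0.73 ± 0.08 (adjusted p = 5.6e-06 and 5.5e-06). The later drop was lost with cyclic loess (-0.23), adjusted p = 0.0505. CG31998 averaged 9.26 ± 0.09 (mitosis), 8.45 ± 0.11 (meiosis) and 7.22 ± 0.29 (post-meiosis), with -0.81 ± 0.13 and -1.23 ± 0.13 (adjusted p = 1.0e-04 and 1.8e-06). CG11360 averaged 7.39 ± 0.07 (mitosis), 6.92 ± 0.10 (meiosis) and 6.61 ± 0.26 (post-meiosis) with -0.47 ± 0.12 in meiosis (adjusted p = 0.0039). Its later -0.31 ± 0.12 (adjusted p = 0.0332) was lost without meiosis replicate 2 (-0.29), without meiosis replicate 3 (-0.28) and without post-meiosis replicate 1 (-0.17), with adjusted p between 0.0922 and 0.117. CG33941 averaged 5.16 ± 0.04 in meiosis, against 5.60 ± 0.31 in mitosis. This change of -0.44 ± 0.13 (adjusted p = 0.0126) was lost without mitosis replicate 2 (-0.38) and without mitosis replicate 3 (-0.32), with adjusted p between 0.0598 and 0.07. CG33978 and CG1909, at 5.41 and 4.10, passed at neither step by their brightest probe sets.

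Read over both steps, the most common course with a call at each was a drop at both, in 17 of the 82 (20.7%), where 13.7% of all probe sets did so. The 16 genes with this course included Crk, Rad23, Gyf, gw, MED26, Taf3, Zyx, Eph and Ephrin. The dip in meiosis came next, in 15, followed by the peak in meiosis, in 9 (11.0%), where 8.19% of all probe sets had it. A rise at both steps was seen in 2 (2.44%), Cadps and apolpp, where 9.44% of all probe sets had it. A rise in post-meiosis alone was seen in 10 (12.2%), against 19.9% of all probe sets, and no call at either step in 19 (23.2%), against 23.5%.

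**Figure D4:**
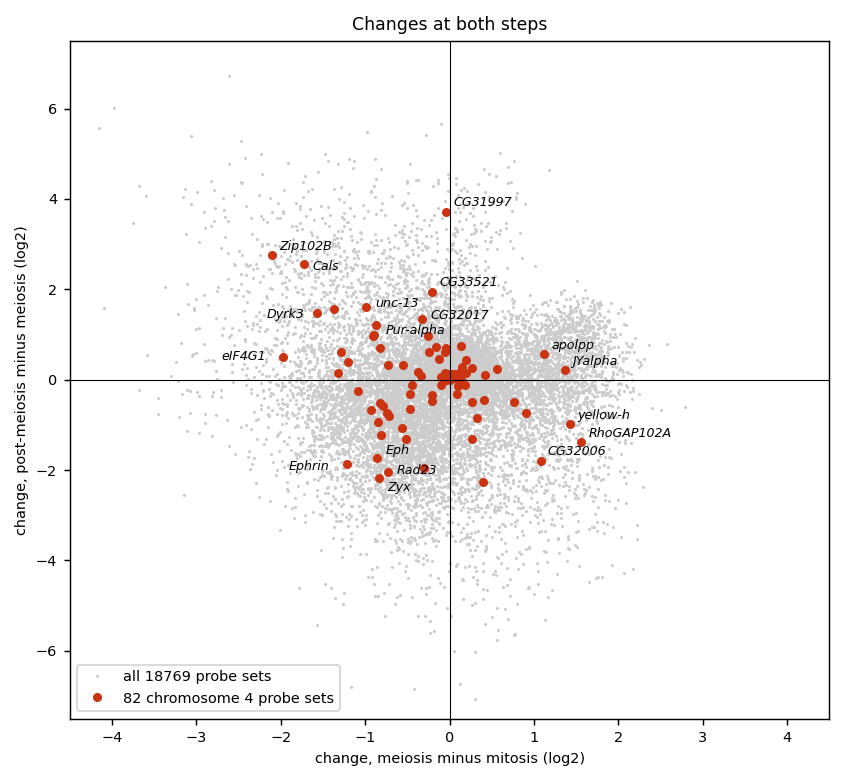
Change from meiosis minus mitosis (horizontal axis, log2) against change from post-meiosis minus meiosis (vertical axis, log2) for all 18769 probe sets (grey) and the 82 of chromosome 4 (red), where both axes use the same meiotic arrays. The upper right holds apolpp and JYalpha, the upper left Zip102B, Cals and Dyrk3, and the lower left Zyx, Rad23 and Ephrin.

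Of the 12 genes with more than 1 probe set, 6 had the same call in all of them in meiosis against mitosis, 5 had a call in some only, and 1, Cadps, had opposite calls. In the following step, 7 had the same call in all and 5 in some only. Those without a call at these steps were the dimmer ones for PlexB, toy and Ank. For CG33978 it was the other way, since the dimmer probe set, with a mean of 4.59, was called at both steps (0.41 ± 0.09 and -0.46 ± 0.09) and the brighter at neither. For PMCA, the probe set without a post-meiotic call had a mean of 8.99, above that of the dimmest, which had one.

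Neighbouring genes moved in the same and in opposite directions. Among 63 pairs of measured neighbours on the chromosome, both genes were called in the same direction in 17 and in opposite directions in 10 in meiosis against mitosis, and in 36 at least 1 had no call. For post-meiosis against meiosis, the numbers were 17, 16 and 30. The longest run of measured neighbours with the same call in meiosis was 4 genes, gw, Slip1, CG11360 and myo, all lower. In post-meiosis there was a run of 5 genes in either direction. Gat, Ekar, gw, Slip1 and CG11360 were lower, with changes of -0.48, -0.49, -0.81, -0.66 and -0.31. Cals, CG11155, CG32017, Kif3C and CG33521 rose by 2.55, 0.97, 1.35, 0.73 and 1.95. A run of 4, toy, Mpv17, CG11076 and Zyx, was also lower. These runs of lower genes rest in part on calls lost under some alternatives. They were the meiotic call of myo and the post-meiotic calls of Slip1, CG11360 and Mpv17. Of the 64 genes, 15.6% were higher and 48.4% lower in meiosis, and 32.8% and 39.1% in post-meiosis. With shares of this size, a random order would also place genes with the same call side by side. How many such pairs and runs a random order would give, or other chromosomes hold, was not tested.

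**Figure D5:**
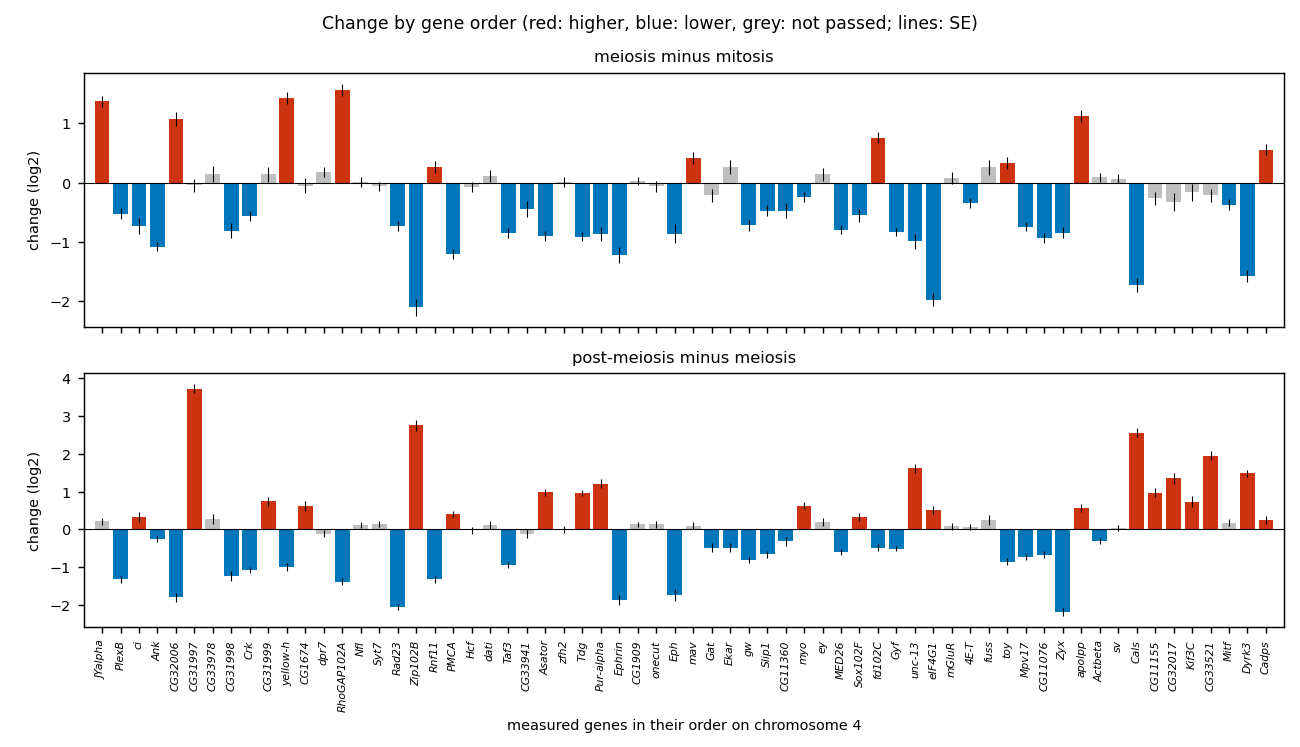
Change (log2, bars, with lines for the SE) of the 64 measured genes in their order on chromosome 4, for meiosis minus mitosis (top) and post-meiosis minus meiosis (bottom), with higher in red, lower in blue and not passed in grey. Drops and rises were interspersed in meiosis, and in post-meiosis a run of 5 genes was lower and another run of 5 was higher.

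Among regulators of the chromosome that are encoded elsewhere, 4 of 6 listed were measured. Pof read 13.03, 13.10 and 13.10 (mitosis), 13.63, 13.72 and 13.61 (meiosis) and 13.24, 13.46 and 13.28 (post-meiosis). It was highest in every meiotic array, with 0.58 (adjusted p = 4.9e-05) and then -0.33 (adjusted p = 0.0039). At the step from mitosis to meiosis, 36 of the 82 chromosome 4 probe sets (43.9%) were lower and 13 (15.9%) higher. Of all probe sets, 26.3% were lower and 24.3% higher. The HP1a gene averaged 12.34 ± 0.04 (mitosis), 11.45 ± 0.08 (meiosis) and 9.68 ± 0.08 (post-meiosis) and fell at both steps, with -0.89 and -1.77 (adjusted p = 6.3e-07 and 4.4e-10). The eggless partner wde averaged 10.24 ± 0.13 (mitosis), 9.04 ± 0.23 (meiosis) and 6.06 ± 0.14 (post-meiosis) and also fell, with -1.20 and -2.98 (adjusted p = 1.7e-06 and 1.5e-10). Su(var)3-7, a zinc finger partner of HP1a, averaged 5.41 ± 0.17 (mitosis), 5.08 ± 0.11 (meiosis) and 5.25 ± 0.12 (post-meiosis), with -0.34 in meiosis (adjusted p = 0.015) and 0.18 in post-meiosis (adjusted p = 0.149). Whether any of these levels bears on the genes of chromosome 4 was not tested.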

How the data were processed

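RNA from 3 testis regions, with 3 biological replicates each, was amplified with a modified in vitro transcription step, labelled with biotin and hybridised to 1-colour arrays. The authors deposited log2 intensities per probe set, obtained in R by RMA with background correction and quantile normalisation. The medians of all probe sets in the deposited values were unequal, at 6.43 to 6.44 in mitosis, 6.36 to 6.39 in meiosis and 6.48 to 6.54 in post-meiosis. The version of RMA is not given in the sources used here. The table held 18952 probe sets, of which 183 Affymetrix controls were left out. Genes were named through GEO's platform annotation, in which 13647 probe sets had 1 symbol, 401 several and 4721 none. Symbols and chromosomes were updated by gene ID from the RefSeq gene table of assembly Release 6 plus ISO1 MT, which was used for names and gene order only. Genes of chromosome 4 without a named probe set were not analysed here.

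One model (limma 3.58.1, lmFit and eBayes, R 4.3.3) was fitted over 9 arrays for the 3 pairwise contrasts, two-sided, with Benjamini-Hochberg adjustment over 18769 probe sets and a threshold of 0.05. No filter on low values was applied. The script was tested on simulated data. Summaries and plots were made in Python 3.11.15 with pandas 2.3.3 and matplotlib 3.10.9.

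The chromosome 4 genes and the function lists were chosen with earlier results of these data known. Single-array values were given by rule for the 8 largest rises and falls at each step without overlap of the arrays (brightest probe set of a gene), for the 5 brightest genes and for genes with opposite probe sets. The arrays of Taf3 and the regulator Pof were added after their values were seen. With 3 arrays in a phase, their number limits the precision. The p-values set each mean difference against the spread between these samples. The samples are pools of many testes, so variation between single flies was not measured. Alternatives were centring on medians, cyclic loess, a filter at a mean of 6, 1 probe set per gene, leaving out probe sets that may match several transcripts (names ending in _s_at, _x_at or _a_at, which 35 of the 82 carry), the replicate number as a block and leaving out each array. Deviations of same-numbered samples of different phases correlated at -0.09 to 0.36. The highest value, 0.36, was that of mitosis 1 with meiosis 1, and the next highest was 0.09. Differently numbered samples of different phases gave -0.22 to 0.15. Whether the numbers pair the samples was not tested.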

Additional observations from a re-analysis of the deposited data

How the results depend on the processing

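Most changes held. Of 103 called changes of single probe sets at the 2 steps, 88 kept direction and call under every alternative run, 15 lost the call or changed sign under some, and 12 lost it with some 1 array left out. Of 57 changes not called, 19 passed under some alternative. The one change of sign was that of Ank, whose post-meiotic change of -0.26 became 0.11 with cyclic loess. With a filter at a mean of 6, which leaves 42 of the 82 probe sets, the counts higher were 7 (16.7%, where 33.2% of all probe sets were) in meiosis against mitosis, 16 (38.1%, where 39.1% were) in post-meiosis against meiosis and 14 (33.3%, where 44.7% were) in post-meiosis against mitosis. The counts lower were 28 (66.7%, where 40.6% were), 21 of the 42 (where 43.6% were) and 24 (57.1%, where 46.0% were). Without probe sets that may match several transcripts, which leaves 47, 11 were higher (23.4%, where 24.6% of all were) and 15 lower (31.9%, where 23.1% were) in meiosis against mitosis, so that the share of rises was close to that of all probe sets. The counts were 16 higher (34.0%, where 37.0% were) and 17 lower (36.2%, where 26.9% were) in post-meiosis against meiosis, and 15 lower (31.9%, where 27.6% were) in post-meiosis against mitosis. Both alternatives count over fewer probe sets. With cyclic loess, 16 were higher in post-meiosis against mitosis, in place of 26, where 31.3% of all probe sets were, in place of 49.6%. The cause was not tested. Leaving out 1 array gave 10 to 14 higher and 33 to 38 lower in meiosis against mitosis, 24 to 31 and 27 to 30 in post-meiosis against meiosis, and 22 to 27 and 31 to 33 in post-meiosis against mitosis. Of all probe sets, 21.1% to 27.4% were then higher and 24.8% to 27.5% lower in meiosis against mitosis. These shares were 30.9% to 41.8% and 26.3% to 28.0% in post-meiosis against meiosis, and 45.6% to 51.7% and 28.7% to 29.8% in post-meiosis against mitosis.

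The replicate number as a block gave 13 higher and 35 lower, 27 and 30, and 26 and 33 in the same comparisons. The shares of all probe sets were 24.6% and 26.4%, 38.0% and 27.9%, and 49.6% and 29.6%. The numbers were not shown to pair the samples, since only 1 of the same-numbered correlations exceeded 0.1. Quantile normalisation can hide a shift common to most genes, RMA gives no detection calls, and differences near the floor of the arrays are compressed, which limits what can be said of the dim genes.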
